A study of Caenorhabditis elegans with 139 samples.

Results

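Body wall muscle of the nematode Caenorhabditis elegans pulls on the cuticle through dense bodies, attachment plaques that tie the thin filaments of the sarcomere to the muscle cell membrane. The plaque is built on an integrin, a membrane receptor made of an alpha and a beta chain, which binds the basement membrane outside the cell and a layer of adaptor proteins inside it. Many of these genes were found through mutants in which embryos stop elongating and lie paralysed in the eggshell. The 10 genes described here were chosen by name, with no rule on their measured values but with earlier results of these data known, among 20687 gene rows of the deposited table. They were the alpha integrin pat-2 (F54F2.1) and the beta integrin pat-3 (ZK1058.2), the integrin-linked kinase pat-4 (C29F9.7), its partners pat-6 (T21D12.4, parvin) and unc-97 (F14D12.2, PINCH), the kindlin unc-112 (C47E8.7), the LIM-domain protein unc-95 (Y105E8A.6), and the actin-linking proteins deb-1 (ZC477.9, vinculin), tln-1 (Y71G12B.11, talin) and atn-1 (W04D2.1, alpha-actinin). In current annotations pat-2, pat-3 and pat-4 lie on chromosome III, pat-6 and deb-1 on chromosome IV, unc-112 and atn-1 on chromosome V, unc-97 on the X, and unc-95 and tln-1 on chromosome I.

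The series holds 139 embryos, each sequenced on its own by CEL-Seq, a barcoded method that amplifies RNA linearly before sequencing. The labels give for each embryo only a time in minutes after the 4-cell stage, with 86 distinct times from -50 to 840 min at 20°C, and no genotype, strain or treatment group. Embryos were cut out of adult mothers, and the RNA is that of the whole embryo, so that fewer cells of a type and less RNA per cell cannot be told apart. Embryos were placed in 7 windows of labelled time, namely T1 (-50 to 30 min, n = 17), T2 (40 to 100 min, n = 11), T3 (110 to 190 min, n = 13), T4 (200 to 290 min, n = 30), T5 (300 to 390 min, n = 18), T6 (400 to 590 min, n = 25) and T7 (600 to 840 min, n = 25). Levels are CPM, the count of a gene scaled to a total of 1000000 gene counts in each embryo, given as mean ± SD over the embryos of a window. A gene was called higher or lower when its Benjamini-Hochberg adjusted p in edgeR's quasi-likelihood test, taken over all genes tested, was under 0.05 and its fold at least 2. CPM values of different genes are not set against each other as levels.

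The shallowest embryo held 12338 gene counts and the deepest 4557314 (median 692649), and 1 count stood for 81.05 CPM in the shallowest embryo and 1.444 CPM at the median depth. The title numbers were split into 5 blocks of consecutive numbers. Labelled times run anew from early to late in each of blocks 2 to 5, while in block 1 they follow no order. Windows and blocks are tied: T7 holds only embryos of block 1, T5 holds none of it, and block 5 covers the times up to 420 min with 45 embryos. When each embryo's time was predicted from the profiles of the others over 6348 genes, members left out, the median absolute error was 10 min and 7 embryos missed their label by more than 100 min. Of these, 4 embryos of block 1 labelled 240 or 250 min were placed at 420 or 430 min. The other 3, of block 2, were labelled 200, 340 and 400 min, were placed at 790 or 800 min, and had 17878, 88778 and 124051 gene counts. The first of them had no count of any member.

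Genes of muscle and other tissues outside the group were examined beside the members, in RNA of the whole embryo. The muscle regulator hlh-1 (the MyoD homologue) rose by 3.46 and unc-120 (an SRF-type factor) by 4.36 on the log2 scale between T2 and T3. Between T3 and T5 all 13 tested genes of a list of 16 body wall sarcomere genes rose, and their summed level went from 747 to 3504 CPM in T3 to 6683 to 16555 CPM in T5. Over the same interval 7 of 7 epidermal hemidesmosome genes and 6 of 7 tested of 10 basement membrane genes rose. These counts stand beside 24.2% of 7037 tested genes called higher and 15.8% called lower. Mean summed levels of other tissue lists went both ways from T3 to T5. They were higher in T5 for pharynx muscle (13.2 to 78.8 CPM), intestine (525 to 1041 CPM) and, slightly, neuron genes (317 to 357 CPM). They were lower for the 3 muscle regulators hlh-1, unc-120 and hnd-1 (533 to 433 CPM) and for maternal germline genes (898 to 606 CPM). These sums were not tested. The part of each tissue in the members' levels was not tested.

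All 10 members rose between T3 and T5, the interval in which sarcomere genes also rose. Of all 7037 genes tested, 24.2% were called higher and 15.8% lower, and the members' median log2 difference was 2.35 against 0.103 over all genes. The largest differences belonged to deb-1 with 5.63 ± 0.64 (log2 difference ± SE, adjusted p = 1.57e-09), unc-95 with 5.46 ± 0.65 (adjusted p = 4.41e-09) and pat-2 with 5.07 ± 0.51 (adjusted p = 1.06e-10). The smallest belonged to pat-3 with 1.03 ± 0.29 (adjusted p = 0.00304) and unc-112 with 1.08 ± 0.33 (adjusted p = 0.00611). Those 2 were also the members whose calls depended on the setting. With DESeq2, with relative log expression size factors, without the filter on low counts and within block 5 alone, 8 members were called higher and the difference of pat-3 lay between 0.66 and 0.85 and that of unc-112 between 0.83 and 0.91, under the fold of 2 but with adjusted p-values of at most 0.0220. The count was 9 with total counts alone and without the embryos under 100000 gene counts. It was 10 with the title block as a covariate and without the embryos that missed their label.

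**Figure D1:**
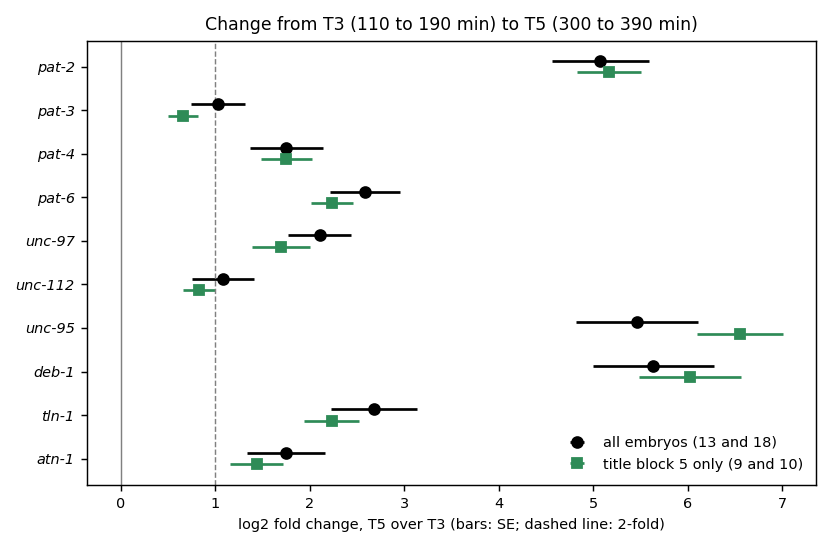
Log2 difference between T3 and T5 for each of the 10 members, with bars for the standard error, from edgeR's quasi-likelihood test over all embryos (circles) and within block 5 alone (squares, 9 and 10 embryos). All 10 circles lie past the dashed line of a 2-fold change, from 1.03 for pat-3 to 5.63 for deb-1, while the squares of pat-3 (0.66) and unc-112 (0.83) lie short of it.

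The alpha and beta chains of the receptor had unlike profiles. PAT-2 is the alpha chain that pairs with the sole beta chain of the worm, PAT-3, in muscle. pat-2 ran from 0 to 46.2 CPM in T3 with a median of 4.62 CPM, from 0 to 266 CPM in T4 with a median of 101 CPM, and from 90.1 to 335 CPM in T5 with a median of 214 CPM. Every T5 embryo lay above every T3 embryo, while T4 overlapped both. The share of all genes that separate in this way is not given here. The lowest T5 value came from 8 counts, in the block 2 embryo labelled 340 min that missed its label. The rise was called from T3 to T4 (3.99 ± 0.56 log2, adjusted p = 2.11e-07) and again from T4 to T5 (1.01 ± 0.30, adjusted p = 0.0119), 2 comparisons that share the T4 embryos. The second of these calls sat at the fold threshold and was lost with relative log expression size factors, DESeq2 and total counts alone. Within block 5 the level was 17.7 CPM in the embryo of 190 min, 5.15 CPM at 200 min, 99.1 CPM at 210 min, 44.1 CPM at 220 min, 62.6 CPM at 230 min, 149 CPM at 240 min and 98.9 CPM at 250 min.

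pat-3 was present from the beginning. In T1 its level was 248 ± 73.7 CPM and no embryo was without a count, with a lowest value of 133 CPM, a median of 229 CPM and a highest of 389.9 CPM. The T3 embryos ran from 82.0 to 381 CPM with a median of 246 CPM, and the T5 embryos from 33.8 to 811 CPM with a median of 426 CPM. The lowest T5 value was that of the block 2 embryo labelled 340 min, and without the embryos that missed their label the lowest was 313 CPM, inside the range of T3. The mean went from 168 ± 76.9 CPM in T2 to 468 ± 190.5 CPM in T5 and then to 173 ± 75.5 CPM in T7, and its T1 mean was 52.9% of its highest window mean. pat-3 was called in no comparison of neighbouring windows: from T3 to T4 the log2 difference was 0.80 ± 0.25 with an adjusted p of 0.0108, below the fold of 2.

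**Figure D2:**
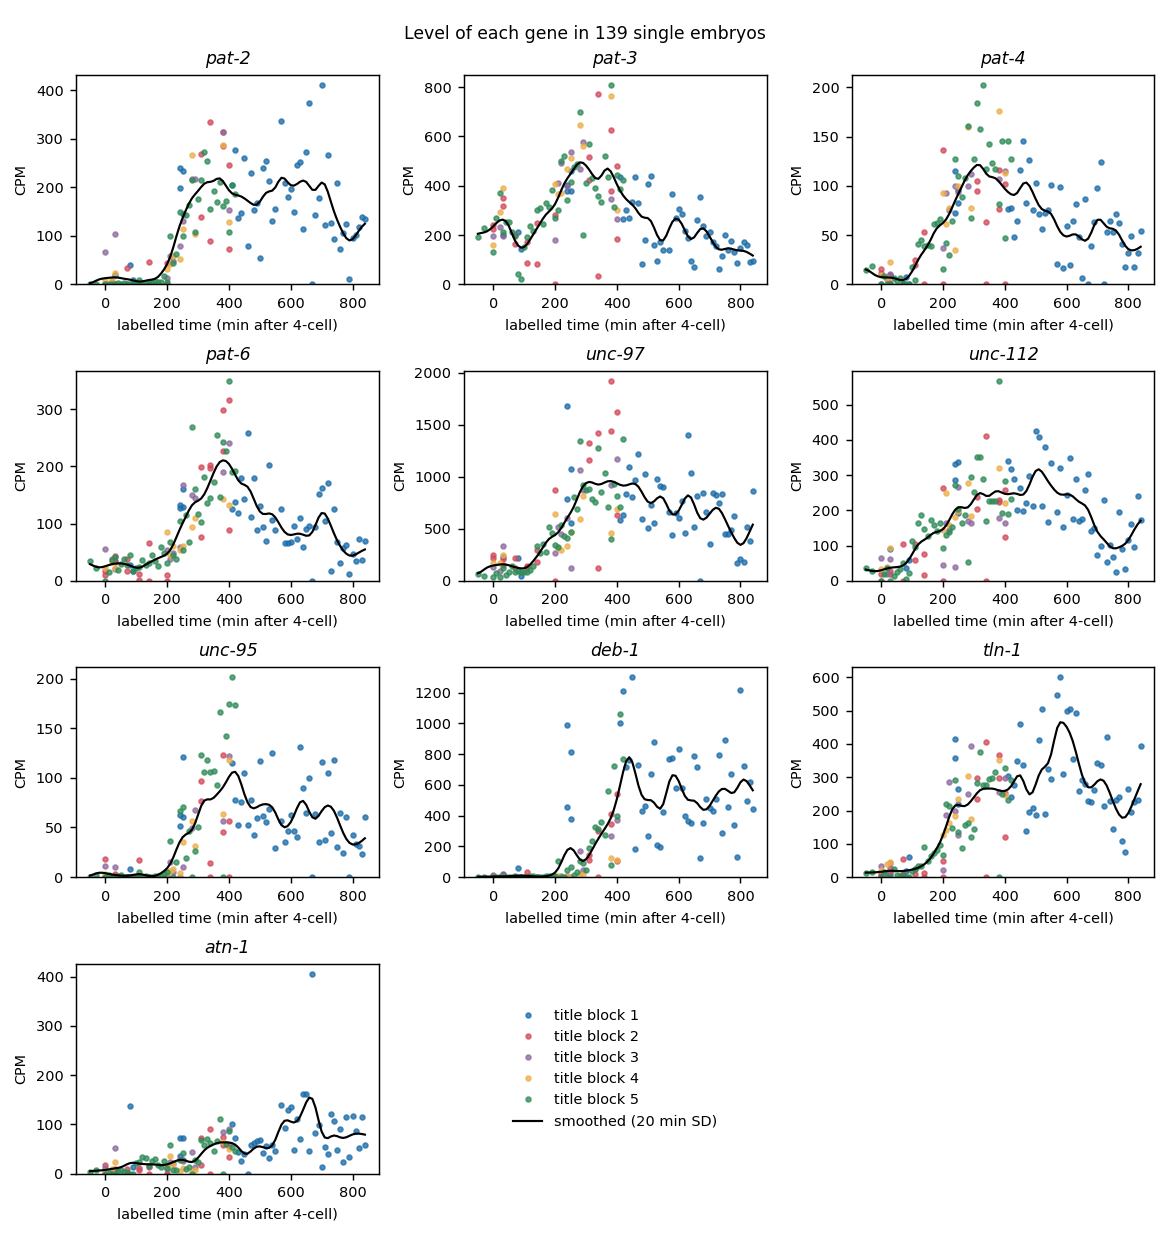
CPM of each member in every embryo against labelled minutes after the 4-cell stage, 1 panel per gene, coloured by block of title numbers, with the profile smoothed over time as a line. pat-3 and unc-97 have counts in the youngest embryos, while pat-2, unc-95 and deb-1 lie near 0 up to 190 min in most embryos.

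The other alpha integrin of the worm, ina-1, which also pairs with PAT-3 and is known from migrating cells, neurons and other tissues outside muscle, offers a measure inside the embryo that needs no normalization across embryos. Among the counts of pat-2 and ina-1 together, in embryos with at least 10 of them, pat-2 made up 2.63% ± 4.63 in T3 (n = 13), 9.85% ± 5.38 in T4 (n = 29), 18.4% ± 7.61 in T5 (n = 18), 32.8% ± 18.9 in T6 (n = 25) and 65.5% ± 20.6 in T7 (n = 24). In T1 the share was 3.77% ± 5.83 (n = 14) and in T2 4.72% ± 7.62 (n = 10). These are shares of reads, and reads of the 3' end are not corrected for how well each gene is captured, so that a share of 50% is not a point of equal numbers of transcripts. The share was higher in the later window at T3 to T4 by 7.21 percentage points (two-sided permutation test with 100000 resamples, adjusted p = 0.00014 over 7 comparisons), at T4 to T5 by 8.56 points (adjusted p = 0.00014), at T5 to T6 by 14.3 points (adjusted p = 0.00392) and at T6 to T7 by 32.8 points (adjusted p = 7e-05). The unadjusted p of the last permutation test was 2e-05, the smallest that the permutations could give. From T1 to T2 (adjusted p = 0.736) and from T2 to T3 (adjusted p = 0.50) the difference did not pass.

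The ranges were wide late. In T6 the share ran from 7.38% to 76.2% and in T7 from 5.71% to 100%, and the windows overlapped. T7 holds only embryos of block 1, which gave 18 of the 25 T6 embryos. The other T6 embryos were labelled at the start of that window, and the share from T6 to T7 was not tested within block 1. Within block 5 the differences at T3 to T4 (6.37 points, exact permutation test, adjusted p = 0.0247) and T4 to T5 (7.91 points, permutation test, adjusted p = 0.0247) passed as well, while T5 to T6 was 4.81 points with 3 embryos in T6 (exact permutation test, adjusted p = 0.445). The mean of ina-1 was 401 CPM in T3, 1007 CPM in T4, 1112 CPM in T5, 489 CPM in T6 and 88.7 CPM in T7, with a log2 difference of -2.05 from T6 to T7, which was called. pat-2 itself had means of 181 ± 68.5 CPM in T6 and 162 ± 98.6 CPM in T7 and was not called between them (adjusted p = 0.641).

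**Figure D3:**
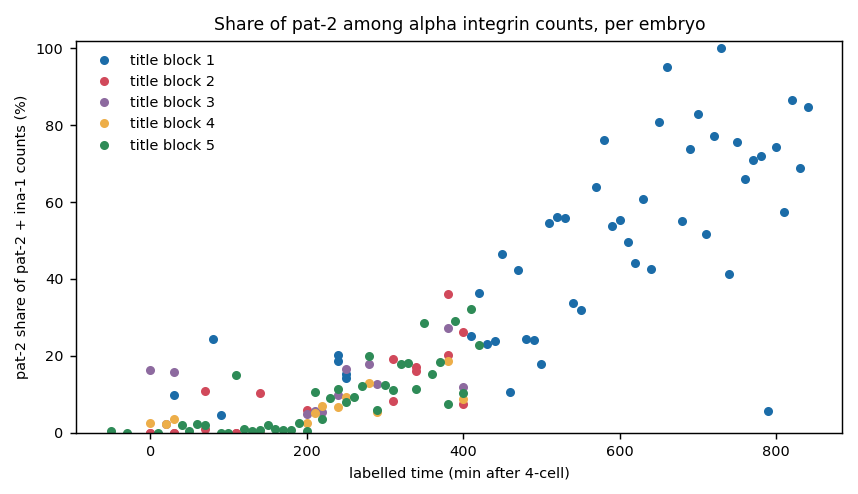
Share of pat-2 in the counts of pat-2 and ina-1 together, in percent, for each embryo with at least 10 such counts against labelled minutes and coloured by block of title numbers. Window means go from 2.63% in T3 to 65.5% in T7, and single T7 embryos lie between 5.71% and 100%.

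The cytoplasmic complex of integrin-linked kinase, PINCH and parvin links the beta tail to actin, and kindlin binds the same tail and recruits the kinase. Between T2 and T3, where 7 members were tested and 10.4% of all genes were called higher and 14.1% lower, 2 members were called, both of them adaptors, pat-4 and unc-112. pat-4 ran from 0 to 17.1 CPM in T2 with a median of 1.12 CPM and was without a count in 5 of 11 embryos, and ran from 0 to 66.4 CPM in T3 with a median of 40.4 CPM. The ranges overlapped through 2 T3 embryos, with 0 and 4.21 CPM. The log2 difference was 2.89 ± 0.70 (adjusted p = 0.00261). In block 5 the value was 4.21 CPM at 110 min, 41.1 CPM at 120 min and 66.4 CPM at 190 min.

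The kindlin unc-112 ran from 0 to 113 CPM in T2 with a median of 32.8 CPM and from 15.1 to 187 CPM in T3 with a median of 141 CPM. The ranges overlapped, and the log2 difference was 1.33 ± 0.47 (adjusted p = 0.0318). unc-97 had a difference of 0.97 ± 0.31 (adjusted p = 0.0172) in the same comparison, just under the fold of 2, and tln-1 one of 1.09 that missed the adjusted threshold (adjusted p = 0.186). Within block 5 the count was 5, with unc-97 at 1.43 (adjusted p = 0.00250), tln-1 at 2.39 (adjusted p = 0.000524) and atn-1 at 1.58 (adjusted p = 0.0105) called beside pat-4 and unc-112. More genes were called overall in that fit, 1307 of 6677 higher and 1323 lower. unc-97 was also called with relative log expression size factors, with total counts alone, without the filter, with the title block as a covariate and with DESeq2, which called 4 members in all.

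From T3 to T4, 7 of 10 members rose and none fell, where 13.6% of 6281 genes were called higher and 8.12% lower. The parvin pat-6 ran from 0 to 66.4 CPM in T3 with a median of 31.2 CPM, a level it also had in T1 (28.2 ± 13.7 CPM) and T2 (27.0 ± 9.82 CPM). It ran from 0 to 268 CPM in T4 with a median of 67.6 CPM, and from 76.1 to 298 CPM in T5 with a median of 185 CPM. T5 lay above T3 without overlap, as for pat-2, and here too the share over all genes is not given. Its rises from T3 to T4 (1.49 ± 0.39, adjusted p = 0.00227) and from T4 to T5 (1.06 ± 0.26, adjusted p = 0.00269) were both called. The other members called from T3 to T4 were pat-2, pat-4 (1.15 ± 0.32), unc-97 (1.34 ± 0.33), unc-95, deb-1 and tln-1 (2.12 ± 0.40). Within block 5, where unc-95 and deb-1 were filtered out as too low, 4 of 8 tested members rose (pat-2, pat-6, unc-97 and tln-1) with 760 genes called higher over all, and pat-4 had a difference of 0.77 with an adjusted p of 0.0741. With the title block as a covariate 5 of 10 rose, without pat-4 and pat-6.

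The PINCH gene unc-97 had counts in all 17 T1 embryos (33.3 to 332 CPM, median 151 CPM). Its T3 values ran from 87.1 to 515 CPM with a median of 269 CPM and its T5 values from 124 to 1922 CPM with a median of 901 CPM. The 2 windows overlapped through 3 T5 embryos under the highest of T3, with 124, 405 and 463 CPM, the lowest being the block 2 embryo labelled 340 min. The T3 to T5 difference was 2.11 ± 0.33 (adjusted p = 1.52e-06).

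The LIM-domain protein UNC-95 lies in dense bodies and M-lines. unc-95 was at 0 in 8 of 17 T1 embryos, 8 of 11 T2 embryos and 6 of 13 T3 embryos, with a highest T3 value of 17.5 CPM. It then ran from 0 to 121 CPM in T4 (median 17.6 CPM) and from 0 to 166 CPM in T5 (median 94.4 CPM). T5 overlapped T3 through 3 embryos, with 0, 0 and 14.5 CPM. Both steps were called, at 3.84 ± 0.74 from T3 to T4 (adjusted p = 6.36e-05) and 1.48 ± 0.42 from T4 to T5 (adjusted p = 0.00932).

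The vinculin gene deb-1 was near 0 for longer. It ran from 0 to 33.7 CPM in T3 (median 1.95 CPM), from 0 to 990.4 CPM in T4 (median 10.8 CPM), from 0 to 725 CPM in T5 (median 269 CPM) and from 105 to 1299 CPM in T6 (median 578 CPM). In T4 the mean of 113 ± 240.5 CPM was set by the 4 block 1 embryos labelled 240 or 250 min and placed at 420 or 430 min, which had 377 to 990.4 CPM. Without the embryos that missed their label T4 ran from 0 to 168 CPM with a mean of 29.7 ± 44.5 CPM. The call moved with those embryos: with them deb-1 was called from T3 to T4 (4.48 ± 1.06, adjusted p = 0.000898) and not from T4 to T5 (1.07 ± 0.67, adjusted p = 0.249), and without them it was too low to be tested from T3 to T4 and rose by 3.86 ± 0.50 from T4 to T5 (adjusted p = 4.44e-08). With the title block as a covariate it was called in both steps, at 2.23 (adjusted p = 0.0328) and at 3.61 (adjusted p = 3.39e-06).

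From T4 to T5, where 8.80% of 6684 genes were called higher and 7.36% lower, 4 of 10 members rose, namely pat-2, pat-6, unc-95 and the alpha-actinin gene atn-1 (1.39 ± 0.36, adjusted p = 0.00476). The count was 6 with the title block as a covariate, where deb-1 and tln-1 were added and 1138 genes were called higher, 5 within block 5 and 5 without the embryos that missed their label, where deb-1 was added. It was 3 with relative log expression size factors, DESeq2 and total counts alone, where pat-2 was lost. atn-1 ran from 0 to 34.1 CPM in T3 (median 16.5 CPM), from 0 to 72.2 CPM in T4 (median 15.5 CPM) and from 0 to 111 CPM in T5 (median 62.8 CPM). T3 and T4 overlapped nearly in full and were not distinguished (0.32, adjusted p = 0.609). From T5 to T6, 1 of 10 members was called, deb-1 (1.44 ± 0.35, adjusted p = 0.00129), where 16.9% of 6941 genes were called higher and 9.21% lower. With the title block as a covariate that call was lost (0.91, adjusted p = 0.333), and within block 5, with 3 T6 embryos, no member was called. Calls over all genes were fewer in those fits too, with 196 of 6941 genes higher and 19 lower under the covariate and 328 of 8925 higher and 158 lower within block 5.

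The talin gene tln-1, whose product joins the beta tail to vinculin and actin, ran from 0 to 95.7 CPM in T3 (median 34.1 CPM), from 0 to 415 CPM in T4 (median 180.0 CPM) and from 0 to 407 CPM in T5 (median 289 CPM). T5 overlapped T3 through 2 embryos without a count, those with 88778 and 12338 gene counts.

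**Figure D4:**
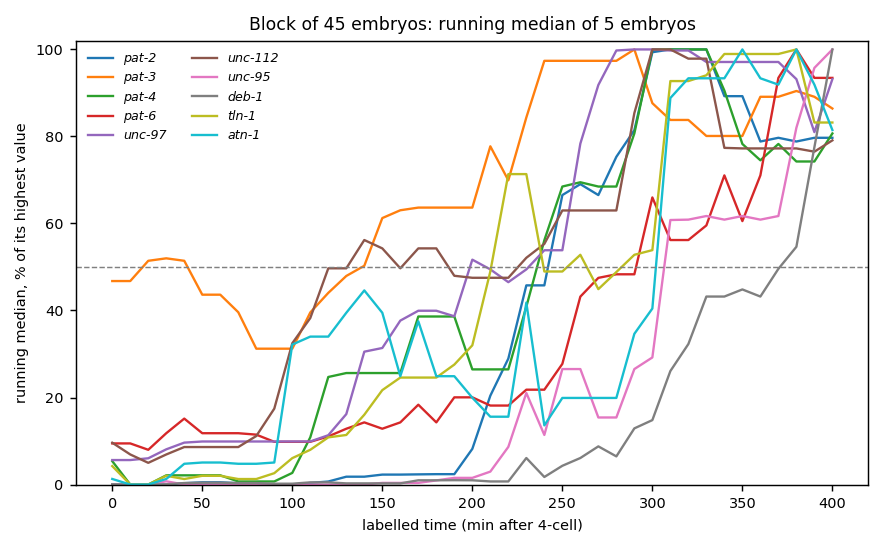
Running median over 5 embryos of each member's CPM within block 5 (45 embryos), as a percentage of that member's highest running median, against labelled minutes. The line of pat-3 stays above 50% from 140 min on, that of pat-2 from 250 min and that of deb-1 from 380 min until each reaches its highest value.

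Block 5, with 45 embryos from -50 to 420 min, gave a course of onset that holds no difference between blocks. The onset was taken as the time from which the running median of 5 embryos stayed at or above 50% of its highest value until that value was reached. It fell at 140 min for pat-3, 230 min for unc-112, 240 min for pat-4 and unc-97, 250 min for pat-2, 290 min for tln-1, 300 min for pat-6, 310 min for unc-95 and atn-1, and 380 min for deb-1. Several lines crossed 50% before that and fell back: pat-3 was at 52.0% at 30 min, unc-112 at 56.2% at 140 min and tln-1 at 71.3% at 220 min. This order is a description of 1 set of embryos, with no test. Block 5 ends at 420 min, so each 50% level refers to the highest value reached by then. For deb-1 and unc-95 that value was the running median at 400 min, the last of the block. In the profile smoothed over all embryos atn-1 was highest at 660 min. By the same rule its onset there fell at 560 min, after that of deb-1 at 390 min. deb-1, unc-95 and pat-2 had no such early crossing and lay below 5% up to 190 min, and among them the onset of pat-2 came earliest and that of deb-1 latest.

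Early values differed between blocks. In T1 pat-2 had a mean of 57.8 CPM in the 3 embryos of block 3 and of 0.151 CPM in block 5, where 5 of 6 embryos had no count. The block 3 values were 65.7 CPM from 6 counts, 103.6 CPM from 10 counts and 3.95 CPM from 18 counts. The high ones thus came from shallow embryos. In T2 atn-1 was at 13.6 and 137 CPM in the 2 embryos of block 1 and had a mean of 5.79 CPM in block 5. The summed level of 6 yolk protein genes, which are made in the adult intestine, also differed between blocks. In T2 its means were 19510 CPM in block 1, 10330 CPM in block 2 and 885 CPM in block 5. In T1 its mean was 78.2 CPM in block 3, where the mean of pat-2 was 57.8 CPM, and 935 CPM in block 5, where pat-2 was near 0. Its part in the early member values was not tested. From T1 to T2, where 15.1% of 5636 genes were called higher and 14.5% lower, 0 of 5 tested members were called by edgeR or DESeq2, and 0 had an unadjusted p under 0.05.

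**Figure D5:**
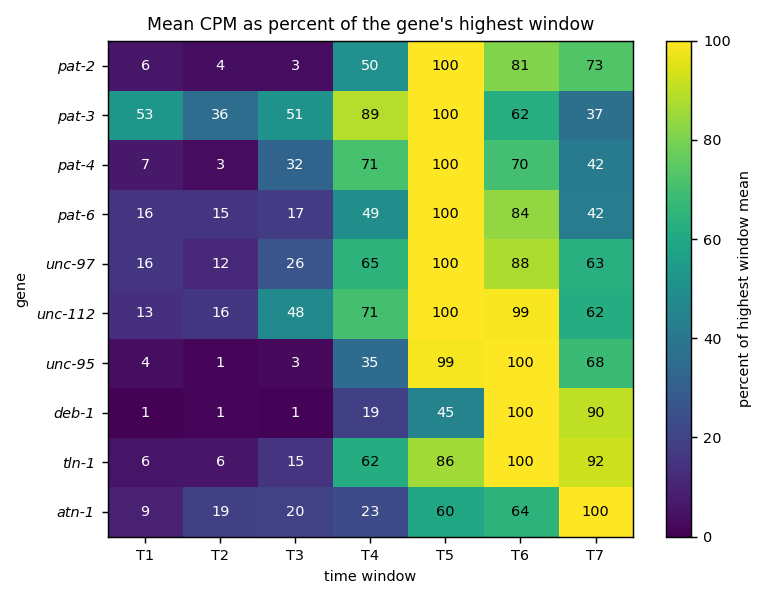
Mean CPM of each member in the 7 windows as a percentage of its own highest window mean, 1 row per gene. pat-3 begins at 52.9% in T1, and the highest window is T5 for 6 members, T6 for unc-95, deb-1 and tln-1, and T7 for atn-1.

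Over the whole course each member differed among the 7 windows (edgeR over 6 coefficients, largest adjusted p of the 10 8.68e-09), in a background where 93.8% of 9923 genes did. Mean levels were highest in T5 for pat-2, pat-3, pat-4, pat-6, unc-97 and unc-112, in T6 for unc-95, deb-1 and tln-1, and in T7 for atn-1. In the order of levels, neighbours at the top were not separated by the tests: T5 and T6 were not distinguished for pat-2 (adjusted p = 0.950), pat-6 (0.952), unc-97 (0.871), unc-112 (0.307) or unc-95 (0.657), nor T6 and T7 for deb-1 (0.740) and tln-1 (0.592). The order is of CPM means, while edgeR scales by TMM factors. From T5 to T6 its log2 difference was above 0 for pat-2 (0.02), pat-6 (0.02), unc-97 (0.06) and unc-112 (0.34), whose CPM means fell. It was below 0 for pat-3 (-0.37) and pat-4 (-0.23), whose means also fell. From T6 to T7 it was above 0 for deb-1 (0.13) and tln-1 (0.16), whose means fell. The highest window of those with unlike signs depends on the scaling. Lower in the order, T7, which comes from block 1 alone, lay above T4 for pat-2 (1.38 log2, adjusted p = 0.000128) and unc-95 (1.71, adjusted p = 0.000170), and above T3 for pat-6 (1.82, adjusted p = 0.000398) and unc-97 (1.81, adjusted p = 3.24e-05). For pat-3, T7 and T3 were not distinguished (adjusted p = 0.932).

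Late in development no member was called from T6 to T7, where 13.3% of 5288 genes were called higher and 15.6% lower. DESeq2 also called 0, and 3 members had an unadjusted p under 0.05 with edgeR. The alpha-actinin gene atn-1 came nearest, with 61.8 ± 31.4 CPM in T6 and 95.8 ± 76.6 CPM in T7 and a log2 difference of 0.79 ± 0.26 (adjusted p = 0.0154), under the fold of 2. Its highest T7 value of 406 CPM came from the shallowest T7 embryo, with 39430 gene counts. Within block 1, which holds all T7 and 18 of 25 T6 embryos, 0 members were called and atn-1 had a difference of 0.71 (adjusted p = 0.0691).

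Between T5 and T7, 2 of 10 members rose, deb-1 (1.47 ± 0.33, adjusted p = 0.000174) and atn-1 (1.06 ± 0.31, adjusted p = 0.00312), against 24.8% of 6857 genes called higher and 28.6% lower. Since T5 has no embryo of block 1 and T7 no other, block and window cannot be told apart here. deb-1 was called in all 6 other settings run, with differences from 1.00 to 1.37, and atn-1 in none of them, with differences from 0.64 to 0.98. For pat-3, which went from 468 ± 190.5 to 173 ± 75.5 CPM, the call rested on the scaling and on the filter on low counts. Its log2 difference was -0.85 (adjusted p = 0.00252) with TMM factors and the filter, under the fold of 2. It was called lower with relative log expression size factors (-1.22), DESeq2 (-1.21), TMM factors without the filter (-1.05) and total counts alone (-1.41). pat-4 was called lower with relative log expression size factors (-1.01) and total counts (-1.22), and pat-6 with total counts (-1.19). With TMM factors edgeR gave pat-4 a difference of -0.67 ± 0.34 (adjusted p = 0.0871) and pat-6 one of -0.59 ± 0.29 (adjusted p = 0.0732). The median log2 difference of all genes was -0.298 with TMM factors, -0.608 with relative log expression size factors and -0.793 with total counts. Whether pat-3, pat-4 and pat-6 fell by more than this shift was not tested.

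Other genes of muscle attachment, a list of 22 that holds neither the 10 members nor the sarcomere proteins, were examined in the same fits. From T3 to T5, 13 of 17 tested rose and none fell (24.2% and 15.8% of all genes), with a median log2 difference of 2.66. The largest of these belonged to unc-96 (6.58), an M-line protein, alp-1 (5.21), an Enigma-family protein of dense bodies, and unc-52 (5.13), perlecan of the muscle basement membrane. unc-52, the matrix side of the attachment, had means of 8.64 CPM in T3, 73.9 CPM in T4, 265 CPM in T5 and 598 CPM in T7, and was called higher at T3 to T4 (3.23) and T4 to T5 (1.81).

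Calls of this list were spread over the windows, and its counts are read against the shares of all genes given above for each comparison. From T1 to T2, 1 of 8 tested rose, near the 15.1% of all genes, the immunoglobulin-domain gene dim-1 (1.97). From T2 to T3, 3 of 10 rose (10.4% of all genes), namely the paxillin gene pxl-1 (2.14), ina-1 (1.59) and the focal adhesion kinase kin-32 (1.42). From T3 to T4, 5 of 14 rose (13.6% of all genes), led by the tensin gene tns-1 (3.60), unc-52 and the profilin pfn-3 (2.81). From T4 to T5, 5 of 16 rose (8.80% of all genes), led by the copine-domain gene cpna-1 (2.05), unc-52 and pfn-3 (1.68).

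Falls appeared in the late windows. From T5 to T6, 6 of 18 rose and 1 fell (16.9% and 9.21% of all genes), and the largest rises were those of alp-1 (2.74), sorb-1 (2.06), which encodes a sorbin-domain protein, and the zyxin gene zyx-1 (1.59). From T6 to T7, where none of the 10 members was called, 2 of 16 rose, near the 13.3% of all genes, and 5 fell, against 15.6% of all genes, with pxl-1 (2.88) higher and src-1 (-2.15), a tyrosine kinase, and ina-1 (-2.05) lower. Over the same interval 8 of 15 tested sarcomere genes rose and 1 fell, among the risers the myosin heavy chain unc-54 (1.45), and the muscle regulator unc-120 fell by 1.40 on the log2 scale.

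Among themselves the members varied together to unequal degrees. Over the 139 embryos the Spearman rho of the 45 pairs ran from -0.021 (pat-3 and atn-1) to 0.801 (pat-2 and tln-1), with a median of 0.622. These values share the course of time, the depth of each library and the blocks, and are given as a description. pat-2 had the highest mean rho to the other members (0.679) and pat-3 the lowest (0.298).

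By the same measure the non-member genes most like the 10 on average, among 6348 genes with a mean of at least 20 CPM over all embryos, were the ankyrin unc-44 (mean rho 0.727 over 139 embryos), the amyloid precursor-like gene apl-1 (0.709), the papilin mig-6 (0.707), and F14B8.5, the Prickle homologue prkl-1 and F13E9.11 (0.702 each). All 6 had their highest window means in T5 or T6. The other genes named by rule had lower values, with unc-52 at 0.600 (rank 201), myo-3, a myosin heavy chain, at 0.561 (rank 351), unc-120 at 0.545 (rank 427), unc-54 at 0.427 (rank 947), ina-1 at 0.323 (rank 1393) and hlh-1 at 0.153 (rank 2275).

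Of the members, pat-2, unc-112 and tln-1 each overlap a protein-coding gene on the opposite strand (F54F2.9, gasr-8 and mppa-1), and the sources used here do not give whether the counting used the strand, so that some reads of these partners may stand in their values. The other 7 overlap no protein-coding gene.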

How the data were processed

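RNA of 139 single embryos was measured by CEL-Seq, which reads the 3' end of transcripts. The authors deposited raw counts per gene and embryo with no normalization. The submitters' processing notes name Bowtie2 2.1.0, HTSeq 0.5.4p3 and CASAVA 1.8, without their order. The genome build and the use of strand are not given in the sources used here, so no coordinates are printed. The labels name no molecular identifiers, and amplified reads are not independent molecules. Reads in genes made up 47.3% of the total, and 44.2% did not align. The 92 spike-in rows and the 5 rows that name no gene stayed out of library sizes and tests. Of the 20687 gene rows 20063 matched a RefSeq locus tag, and overlaps of genes were read from Ensembl release 115.

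Levels are CPM, computed over gene rows. The quasi-likelihood F-test of edgeR 4.0.16 (R 4.3.3, TMM factors, filterByExpr with a minimum count of 10) was fitted for each pair of windows on their embryos alone, with Benjamini-Hochberg adjustment over all genes tested. The standard error is the absolute log2 difference divided by the square root of F. A single count is worth 1.444 CPM at the median depth, and 13 embryos have under 100000 gene counts. The test was also run on simulated data with the depths and spread of the T3 and T5 embryos. Alternatives were relative log expression size factors, DESeq2 1.42.0, no filter, the title block as covariate, block 5 alone, and leaving out the embryos that missed their label or were shallow. Total gene counts alone, block 1 alone for T6 against T7, and the comparison of T5 with T7 were added after the data had been seen. In 109 comparisons of embryos that carry the same time, chi-square per degree of freedom was at least 2.63, so none of them agreed within sampling noise. The labels do not tie embryos to mothers or broods.

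The 10 members and the gene lists were chosen with earlier results of these data known. Named besides the members were ina-1, unc-52, the muscle references hlh-1, unc-120, unc-54 and myo-3, per comparison the 3 called genes of the adhesion list with the largest difference (higher mean at least 20 CPM), and the 6 genes most like the members.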

Additional observations from a re-analysis of the deposited data

How the results depend on the processing

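No paired analysis was possible because the labels carry no replicate numbers, and the embryos of different windows share none. The count of members called higher from T2 to T3 was 2, and 4 with DESeq2 and 5 within block 5. From T3 to T4 it was 7 of 10 tested, 5 of 10 with the title block as covariate, 6 of 9 without the embryos that missed their label and 4 of 8 within block 5. From T4 to T5 it was 4, and 3 to 6 over the alternatives. From T3 to T5 it was 10, and 8 to 10 over the alternatives. From T5 to T6 it was 1, and 0 with the title block as covariate and 0 within block 5. From T5 to T7, 2 members were called higher and 0 lower, against 1 higher and 2 lower with relative log expression size factors, 1 and 1 with DESeq2, 1 and 1 without a filter, and 1 and 3 with total gene counts alone. Leaving out the embryos that missed their label, or those under 100000 gene counts, also gave 1 higher. The difference of atn-1 from T2 to T3 was -0.10 and turned to 1.34 with DESeq2 and 1.58 within block 5. The smoothed level was highest at 570 min for pat-2, but at 600 min with a kernel of 40 min SD and at 360 min without the embryos that missed their label, and at 380 min for unc-97, but at 340 min without those embryos and at 450 min on the log scale. The rise of the pat-2 share from T5 to T6 was 14.3 points, and 4.81 points within block 5 (exact permutation test, adjusted p = 0.445). The cause of these shifts was not tested. T7 holds embryos of block 1 alone, so values within a block exist for T6 against T7 in block 1 and not for T5 against T7. For the pat-2 share no test within block 1 was run. Small differences of members at a few counts per embryo are out of reach at this depth.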
